A study of Mus musculus with 6 samples.

Results

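The transcripts described here encode the subunits of AMP-activated protein kinase (AMPK) and the kinases that switch it on. The genes were chosen by name: Prkaa1, Prkaa2, Prkab1, Prkab2, Prkag1, Prkag2, Stk11, Strada, Cab39 and Camkk2, and all 10 were found among the 18001 genes of the deposited table. Mouse NIH/3T3 fibroblasts, an immortalized line grown in serum-containing medium, received pooled siRNAs directed against Aldoa (siAldoa) or a non-targeting control siRNA (siCtrl). Poly(A) RNA was sequenced 48 h later, with 3 replicates in each group. Both groups received siRNA, so untransfected cells are not part of the comparison, and a pool of siRNAs does not separate its single sequences. Expression is given in CPM, the reads of a gene scaled to the size of its library, in which 1 read was worth 0.262 to 0.274 CPM.

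AMPK is the energy sensor of eukaryotic cells. It is a trimer of a catalytic α subunit, a scaffolding β subunit and a γ subunit that binds AMP, ADP and ATP, and each subunit is encoded by paralogous genes. The kinase is active when its α subunit is phosphorylated on the activation loop, either by LKB1, which works in a complex with the pseudokinase STRADα and the scaffold MO25α, or by the calcium-dependent kinase CaMKK2. Aldolase, the glycolytic enzyme targeted here, has been described as a sensor of fructose bisphosphate: when the sugar phosphate is missing, aldolase at the lysosome is thought to bring LKB1 and AMPK together on the vacuolar ATPase and the Ragulator complex. The sequencing measured the abundance of the transcripts, not the assembly or the phosphorylation of the proteins.

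The knockdown was checked first. The siCtrl libraries had 522, 536 and 545 CPM of Aldoa, against 62.9, 69.2 and 72.0 CPM after siAldoa, a log2 fold change of -2.96 (SE 0.052, limma adjusted p = 1.3e-21). The libraries held between 3692341 and 3771129 reads each, and 3 reads corresponded to 0.79 to 0.82 CPM. Replicates 1 and 2 of each group were closer to each other (chi-square per degree of freedom 1.12 in siCtrl and 1.11 in siAldoa) than either was to replicate 3 (1.97 to 3.03), which therefore stands apart in both groups. The study calls all of them biological replicates. If some share a culture, the p-values measure in part technical spread. All 10 fibroblast markers were detected, with a summed level of 15137 to 15684 CPM in siCtrl and 12670 to 13372 CPM in siAldoa. Of these markers 5 were called lower, among them Col1a1, Col1a2 and Vim, and 4 higher (Pdgfrb, Pdgfra, Fn1 and Thy1). Of the 7 epithelial markers listed, 4 were in the table (Cdh1, Krt8, Krt18 and Krt19), with sums of 6.85 to 11.2 CPM in siCtrl and 1.83 to 4.28 CPM in siAldoa. The 7 macrophage markers summed to 10.9 to 14.2 CPM and 17.3 to 19.97 CPM, and among them Csf1r was the called gene. The part of these shifts in the results was not tested.

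None of the transcripts of AMPK and of its activating kinases passed the test after knockdown of Aldoa, and their mean levels in siAldoa were between 83.4% (Prkab1) and 125% (Strada) of those in siCtrl. At an adjusted p-value under 0.05 (limma with a mean-variance trend, two-sided, adjusted over all genes), 0 of the 10 genes passed, whereas 20.4% of all genes did (10.0% lower and 10.4% higher in siAldoa). Among the 9201 genes whose mean level lay within the range of the 10 (5.94 to 120.7 CPM), 25.4% were called. At an unadjusted p-value under 0.05, 3 of the 10 passed (Camkk2, Strada and Prkab2), and neither edgeR's quasi-likelihood test nor DESeq2 on the recovered reads called any of them (0 and 0). The log2 fold changes (siAldoa against siCtrl, on the log2(CPM + 1) scale) lay between -0.25 and 0.30, with a median of -0.08 against -0.0023 over all genes. Their median absolute value was 0.16, compared with 0.19 for all genes. In 5 of the 10 genes the 95% interval of the log2 fold change lay within 0.5 of zero on either side, and the intervals together reached from -0.54 to 0.56. The groups did not overlap for 4 of the 10 genes, which were lower in siAldoa for Prkaa1, Prkab1 and Camkk2 and higher for Strada. Over all genes the groups did not overlap for 33.8%, with 17.1% lower and 16.7% higher. In a bulk sample, fewer cells with a transcript and less of it per cell cannot be told apart.

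**Figure D1:**
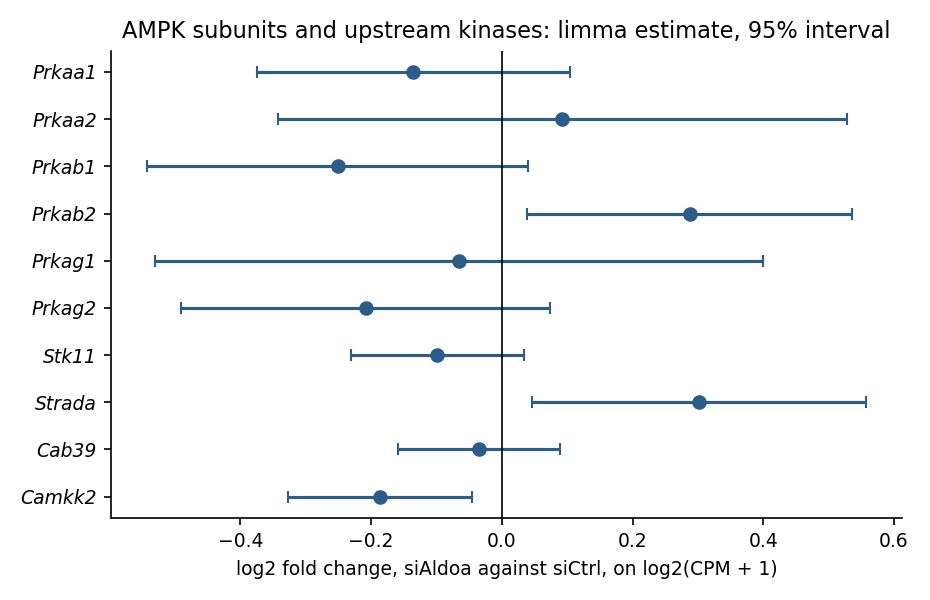
Log2 fold change (x axis, siAldoa against siCtrl on log2(CPM + 1)) of each of the 10 genes (y axis), estimated by limma from 3 libraries per group, with 95% interval bars. The intervals of Prkab2 and Strada lie above zero and that of Camkk2 below it, and the adjusted p-values of these 3 genes are 0.0988, 0.0912 and 0.0565.

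Levels of different genes were compared per kilobase of annotated exons (all exons of a gene joined, GENCODE annotation of GRCm38). In siCtrl the transcripts of LKB1 and of its scaffold were the most abundant. Stk11, which encodes LKB1, had 19.8 ± 0.68 CPM per kilobase (SD, n = 3), followed by Cab39 (MO25α) with 17.3 ± 0.83 and Camkk2 with 7.11 ± 0.15. The third part of the LKB1 complex, Strada, was lower at 3.97 ± 0.41 CPM per kilobase. The AMPK subunits followed in the order Prkab1 (5.77 ± 0.062), Prkaa1 (5.25 ± 0.27), Prkab2 (4.94 ± 0.69), Prkag2 (3.46 ± 0.41), Prkag1 (2.78 ± 0.13) and Prkaa2 (0.79 ± 0.13 CPM per kilobase). Neighbours in this order whose siCtrl libraries overlapped were Prkaa1 with Prkab2 and Strada with Prkag2, and all other neighbours were apart in these libraries. The order depends on the length used: divided by the longest annotated transcript, Cab39 (32.1) came before Stk11 (24.7 CPM per kilobase) and Prkag2 (6.74) before Prkaa1 (5.25). Prkaa2 was the lowest with either length. The second length could not change this. Prkaa2 has 1 annotated transcript (7969 bases by either measure), and no longest transcript exceeds the joined exons of its gene.

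**Figure D2:**
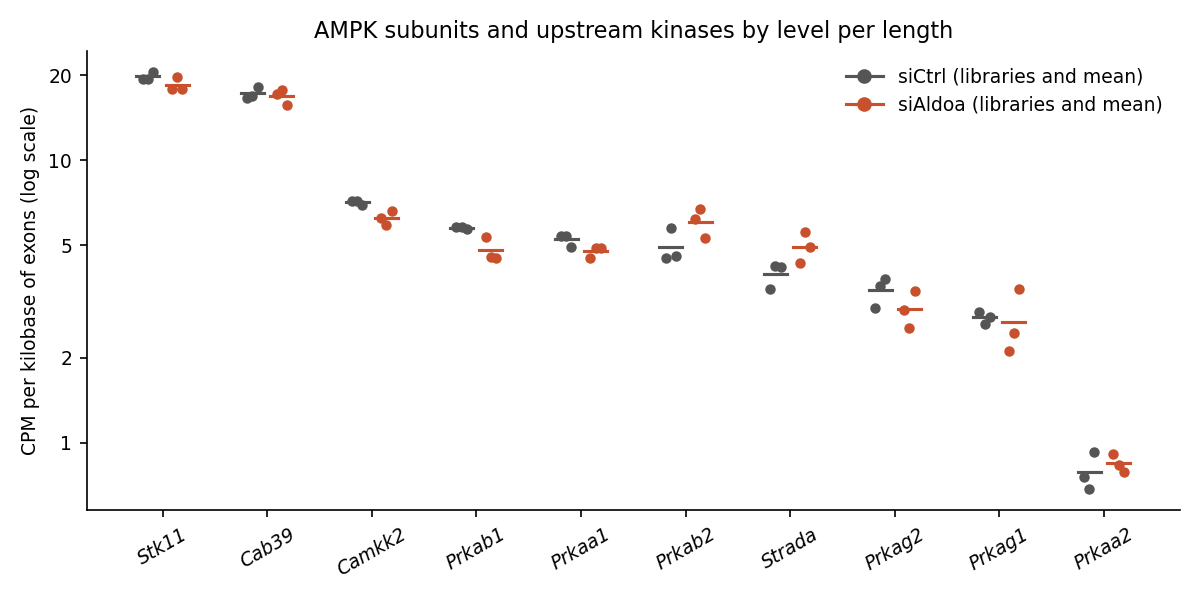
CPM per kilobase of joined exons (y axis, log scale) for the 10 genes in the order of their siCtrl mean (x axis), with a point per library and a line at the mean of each group (n = 3). Stk11 and Cab39 sit between 15.7 and 20.6, the AMPK subunit genes other than Prkaa2 between 2.11 and 6.71, and Prkaa2 below 1 CPM per kilobase in every library.

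The transcripts of the catalytic α subunits came mainly from Prkaa1. Prkaa1 (ENSMUSG00000050697, chr15:5143861-5181899, plus strand) encodes α1, the broadly expressed form. Throughout, values are in the order of replicates 1, 2 and 3. In siCtrl Prkaa1 had 25.2, 25.2 and 23.0 CPM, and in siAldoa it had 21.05, 22.7 and 22.8 CPM. Each siAldoa library was lower than each siCtrl library, but by little: the means were 24.5 ± 1.25 and 22.2 ± 0.98 CPM, a log2 fold change of -0.14 (95% interval -0.37 to 0.10, adjusted p = 0.474). Prkaa2 (ENSMUSG00000028518, chr4:105029874-105109890, minus strand) encodes α2, known from muscle, heart and liver. It was measured at 6.03, 5.47 and 7.41 CPM in siCtrl and 7.29, 6.68 and 6.28 CPM in siAldoa, from only 20 to 28 reads per library. The Prkaa2 groups overlapped, and the log2 fold change of 0.09 had an interval of -0.34 to 0.53.

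Per kilobase, Prkaa1 made up 86.9 ± 2.40% of the α transcripts in siCtrl and 84.9 ± 1.52% in siAldoa. Joined exons and longest transcript have the same length in Prkaa1 (4655 bases) and in Prkaa2 (7969 bases). The α share was therefore not checked with another length. The log2 ratio of Prkaa1 to Prkaa2 was 2.74 ± 0.30 and 2.49 ± 0.17, with overlapping groups (two-sided exact permutation test, p = 0.3, or 0.45 adjusted over the 3 ratios). The summed α level was 6.05 ± 0.15 CPM per kilobase in siCtrl and 5.61 ± 0.15 in siAldoa, without overlap. With 3 libraries against 3 the exact permutation test cannot give a p below 0.1, which is the value found here (0.3 after adjustment over the 3 subunit sums).

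The β subunits, which hold the trimer together and bind glycogen, had the largest difference between the groups in the ratio of their paralogs. Prkab1 (ENSMUSG00000029513, chr5:116013586-116024508, minus strand) encodes β1 and was measured at 17.8, 17.8 and 17.5 CPM in siCtrl and 16.5, 13.9 and 13.9 CPM in siAldoa. All siAldoa libraries were below all siCtrl libraries, with means of 17.7 ± 0.19 and 14.7 ± 1.49 CPM (83.4% of the control), and limma estimated -0.25 on the log2 scale (95% interval -0.54 to 0.04, adjusted p = 0.240). Prkab2 (ENSMUSG00000038205, chr3:97658193-97673812, plus strand) encodes β2, the form known to prevail in skeletal muscle. Its level was 23.0, 29.3 and 23.3 CPM in siCtrl and 31.6, 34.2 and 27.0 CPM in siAldoa. The lowest siAldoa library of Prkab2 lay below the highest siCtrl library, so the groups overlapped. The means were 25.2 ± 3.54 and 30.9 ± 3.66 CPM, with a log2 fold change of 0.29 (95% interval 0.04 to 0.54) and an adjusted p of 0.0988. Without siCtrl replicate 2, its high control, the adjusted p of Prkab2 was 0.048 and its log2 fold change 0.40.

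The ratio of the β paralogs separated the groups. The log2 ratio of Prkab1 to Prkab2 per kilobase was 0.36, 0.014 and 0.32 in siCtrl and -0.21, -0.57 and -0.23 in siAldoa. The means were 0.23 ± 0.19 and -0.33 ± 0.20, a difference of -0.56, which stayed between -0.67 and -0.45 when single libraries were left out. The exact permutation test (two-sided) gave p = 0.1, the smallest it can give, and 0.3 after adjustment over the 3 ratios. Thus Prkab1 made up 54.0 ± 3.27% of the β transcripts in siCtrl and 44.3 ± 3.44% in siAldoa. With the longest transcript as length the same shares were 62.8% and 53.4%, while the difference of the log2 ratios does not depend on the length. The summed β level did not separate the groups (10.7 ± 0.72 and 10.9 ± 0.93 CPM per kilobase, exact permutation p = 0.9).

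**Figure D3:**
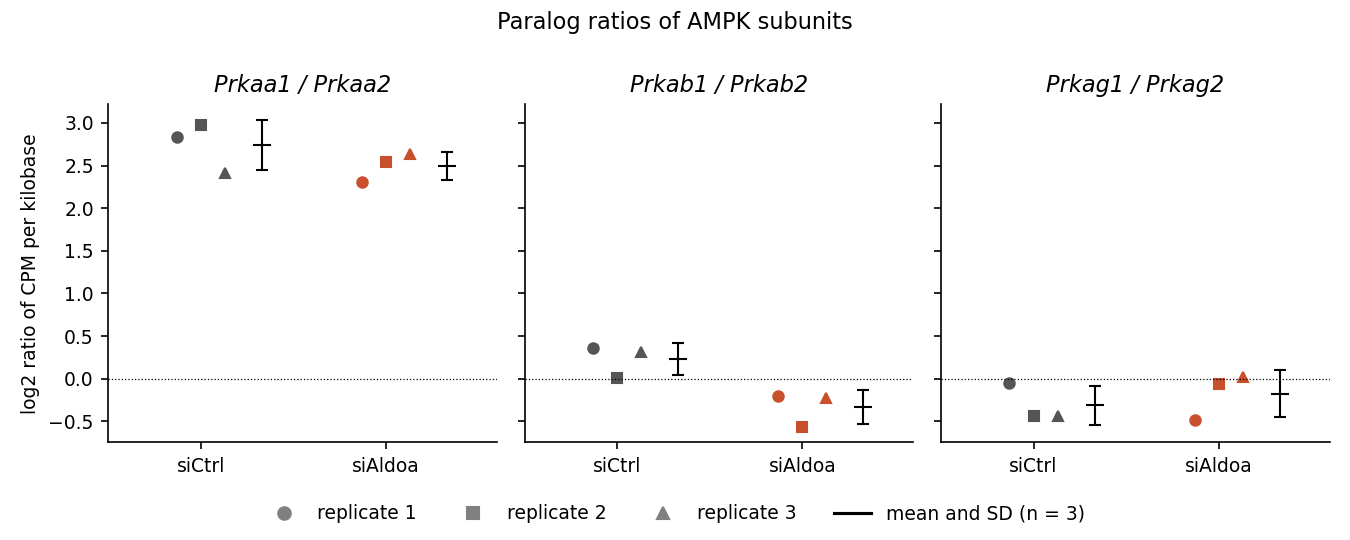
Log2 ratio of CPM per kilobase (y axis) of the paralogs of each AMPK subunit in each library (symbols mark the replicate number), with mean and SD of 3 libraries beside them. For Prkab1 over Prkab2 every siAldoa library lies below every siCtrl library, whereas the groups overlap for the α and γ pairs.

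Because the ratio of the β paralogs separated the groups, their start regions are shown (RefSeq, GRCm38.p6, from 250 bases before to 50 bases after the annotated start, 5′ to 3′ on the strand of the gene). Capitals mark the GC box, GGGCGG or CCGCCC, the motif known to be bound by Sp1. The Prkab1 window is chr5:116024379-116024678 on the minus strand and the Prkab2 window is chr3:97657962-97658261 on the plus strand.
Prkab1: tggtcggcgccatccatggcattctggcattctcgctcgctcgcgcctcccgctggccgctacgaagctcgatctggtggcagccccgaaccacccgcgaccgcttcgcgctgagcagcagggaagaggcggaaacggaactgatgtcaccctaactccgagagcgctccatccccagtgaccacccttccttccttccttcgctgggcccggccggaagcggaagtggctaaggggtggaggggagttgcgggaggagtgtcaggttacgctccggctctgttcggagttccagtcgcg
Prkab2: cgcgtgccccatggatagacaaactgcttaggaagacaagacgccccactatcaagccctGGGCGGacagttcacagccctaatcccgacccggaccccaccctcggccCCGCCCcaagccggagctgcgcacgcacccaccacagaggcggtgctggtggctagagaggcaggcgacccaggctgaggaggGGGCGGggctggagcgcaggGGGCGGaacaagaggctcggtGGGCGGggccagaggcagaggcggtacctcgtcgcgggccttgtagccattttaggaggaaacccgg
The Prkab2 window held 5 GC boxes and the Prkab1 window 0. The Prkaa1 window also held 5. At least 1 GC box was present in 9 of the 10 genes, compared with 38.2% of the 27025 genes with such a window. That background was not limited to the 18001 genes analysed here and was not matched for level. Shares of 88.9%, 91.7% and 78.3% were found in the lists of LKB1-dependent kinases, of transcription factors and output genes and of AMPK substrates described further on. Prkab1 and Prkag1 each held 1 copy of the ETS core (CCGGAAG or CTTCCGG), which 9.93% of the genes with a window hold. These motifs were chosen after the sequences had been seen, and a match of letters is not a bound site.

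The γ subunits carry the nucleotide-binding sites. Prkag1 (ENSMUSG00000067713, chr15:98812797-98831521, minus strand) was measured at 6.30, 5.74 and 6.09 CPM in siCtrl and 4.59, 5.35 and 7.59 CPM in siAldoa. The siAldoa libraries lay on either side of the siCtrl libraries, and the log2 fold change of -0.07 (95% interval -0.53 to 0.40) turned its sign when siAldoa replicate 1 was left out (0.07). Only 17 to 29 reads per library stood behind it. The antisense gene B130046B21Rik shares 950 exonic bases with Prkag1 (43.7% of its exons) on the opposite strand. The antisense gene had 1 to 7 reads per library, and the use of strand in counting is not given in the sources used here, so the value of Prkag1 is uncertain. Prkag2 (ENSMUSG00000028944, chr5:24862744-25100642, minus strand) was measured at 19.4, 23.3 and 24.6 CPM in siCtrl and 19.2, 16.6 and 22.3 CPM in siAldoa. Its groups overlapped (log2 fold change -0.21, 95% interval -0.49 to 0.07, adjusted p = 0.329). Prkag1 made up 44.6 ± 3.87% and 47.0 ± 4.71% of the γ transcripts per kilobase in siCtrl and siAldoa, and the groups overlapped in the log2 ratio (two-sided exact permutation test, p = 0.7). The third γ gene, Prkag3, known from skeletal muscle, was counted with 0 to 4 reads per library, which is at or near the limit of 3 reads, and no fold change is given.

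Of the LKB1 complex, Stk11 (ENSMUSG00000003068, chr10:80115803-80130682, plus strand) was measured at 89.0, 88.6 and 94.2 CPM in siCtrl and 82.0, 89.8 and 82.0 CPM in siAldoa. Its groups overlapped, and with 304 to 356 reads per library the 95% interval of the log2 fold change was narrow (-0.23 to 0.03, estimate -0.10). Cab39 (ENSMUSG00000036707, chr1:85793441-85851576, plus strand), the scaffold of the complex, was the most deeply counted of the 10 genes, with 425 to 487 reads per library. Its level was 118, 120 and 129 CPM in siCtrl and 121, 126 and 111 CPM in siAldoa. The estimate for Cab39 was -0.03 (95% interval -0.16 to 0.09), and its sign turned without replicate 3 of both groups (0.05).

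Strada (ENSMUSG00000069631, chr11:106163330-106202168, minus strand), the pseudokinase that activates LKB1, had the highest estimate of the 10 genes. It was measured at 19.4, 23.5 and 23.3 CPM in siCtrl and 24.0, 31.0 and 27.5 CPM in siAldoa. The siAldoa libraries were all higher than the siCtrl libraries, though the lowest siAldoa library (24.0 CPM) was close to the highest control (23.5 CPM). The means were 22.1 ± 2.29 and 27.5 ± 3.49 CPM, a log2 fold change of 0.30 (95% interval 0.05 to 0.56, adjusted p = 0.0912). A stretch of 328 bases of Strada is 93.0% identical to Gm42861, which had 4 to 8 reads per library, and 158 exonic bases are shared with Ccdc47 on the same strand.

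Camkk2 (ENSMUSG00000029471, chr5:122731170-122779409, minus strand), the calcium-dependent activator of AMPK, had the lowest adjusted p-value of the 10 genes. Its level was 78.6, 78.5 and 75.7 CPM in siCtrl and 68.0, 64.4 and 72.0 CPM in siAldoa. All siAldoa libraries of Camkk2 were below all siCtrl libraries, with means of 77.6 ± 1.67 and 68.1 ± 3.80 CPM (87.8% of the control). The estimate was -0.19 on the log2 scale (95% interval -0.33 to -0.05) and the adjusted p of 0.0565 missed the threshold. It passed with genes under a mean of 1 CPM removed (adjusted p = 0.047), with quantile normalization (0.045) and without siAldoa replicate 3 (0.047), and over all alternatives its adjusted p was between 0.045 and 0.30. The estimate stayed negative throughout, between -0.24 and -0.14.

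**Figure D4:**
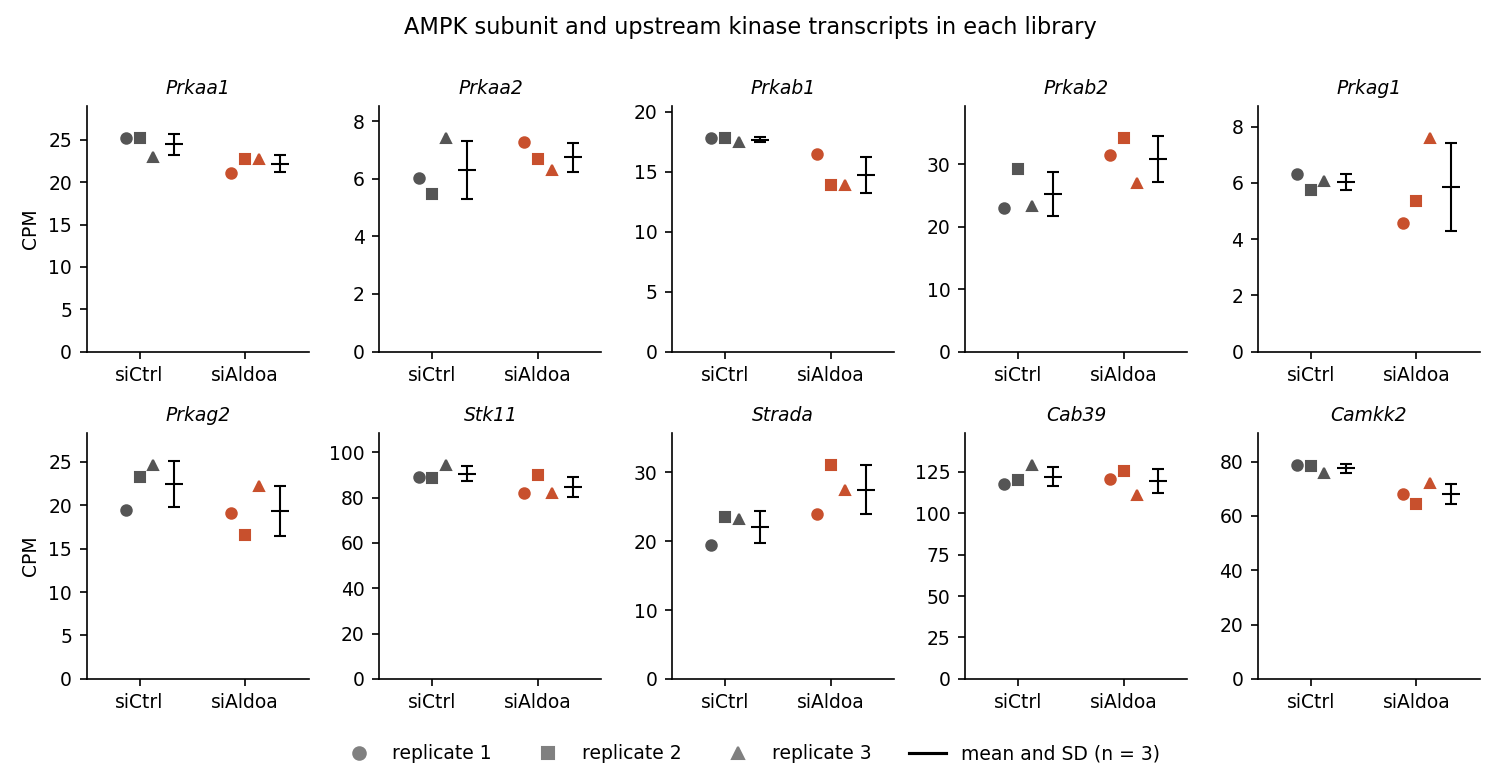
CPM (y axis, from zero, scaled for each gene) of the 10 genes in the 3 siCtrl and 3 siAldoa libraries, with symbols for the replicate number and the mean and SD beside the points. The groups are apart for Prkaa1, Prkab1, Camkk2 and Strada and overlap for the other 6 genes.

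The genes whose pattern over the 6 libraries was most like that of Camkk2 were Zfand1, Fam111a and Nfatc1 (Pearson's r of log2(CPM + 1) 0.999, 0.996 and 0.996, among 10058 genes with a mean of at least 10 CPM). For Strada these genes were Stx12, Ints6 and Hyal2 (0.984, 0.984 and 0.981). Such values are the highest of a large number over only 6 libraries that share the contrast between the groups, and are given as a description.

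Several genes around the kinase rose or fell. Lists of 7 neighbouring groups were examined, and of their 122 genes 109 were in the table. In all 12 were lower and 34 higher (42.2%), compared with 20.4% of all genes and 32.6% of genes with a mean of at least 10 CPM. By list, 33.3% of the adenylate enzymes, 38.5% of the transcription and output genes and 38.9% of the mTORC1 list were called. The shares were 41.7% for LKB1-dependent kinases, 42.9% for regulators, 45.8% for substrates and 50.0% for the lysosomal list. The lowest of these shares are close to the 32.6%. Without replicate 3 of both groups the counts in these lists were 5 lower and 13 higher, and over the whole table they went from 1809 lower and 1867 higher genes to 520 and 494. The lists were put together with earlier results of these data known.

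Regulators of AMPK other than the 10 genes were called in one direction. Of 14 genes 0 were lower and 6 higher (median log2 fold change 0.22). Sesn1 and Sesn3 encode sestrins, stress-induced proteins that bind the GATOR2 complex and have been linked to AMPK activation. Sesn1 was measured at 34.5, 29.3 and 29.1 CPM in siCtrl and 53.7, 59.3 and 61.3 CPM in siAldoa (log2 fold change 0.89, SE 0.092, limma adjusted p = 1.5e-07). Sesn3 rose by 0.66 (adjusted p = 5.9e-07), while Sesn2 had an estimate of -0.17 (adjusted p = 0.146). Folliculin, a lysosomal AMPK-binding protein, and its partners rose together: Flcn from 64.1, 56.6 and 53.4 CPM to 88.2, 95.1 and 102 CPM (0.70, limma adjusted p = 2.8e-07), Fnip1 by 0.40 and Fnip2 by 0.27. The phosphatase gene Ppm1f was the sixth (0.22). The alternative parts of the LKB1 complex, Stradb (-0.01) and Cab39l (-0.03), and the further upstream kinase genes Map3k7 (0.09) and Camkk1 (0.22) did not pass. With libraries left out 4 to 7 of these regulators were higher and 0 lower.

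LKB1 also phosphorylates a family of AMPK-related kinases. Of the 12 genes, 2 were lower (Nuak2 by -0.66 and Mark3 by -0.26) and 3 higher (Nuak1 by 0.73, Sik3 by 0.34 and Mark2 by 0.25), with a median of 0.26. Nuak1 and Nuak2, close paralogs, thus differed in direction. Nuak2 was measured at 27.7, 30.4 and 37.6 CPM in siCtrl and 21.3, 17.1 and 20.7 CPM in siAldoa, and Nuak1 at 32.9, 27.1 and 34.4 CPM and at 54.2, 54.3 and 49.0 CPM. Nuak2 lost its call without replicate 2 or 3 of both groups (highest adjusted p from limma 0.099), and Mark3 without replicate 1 or 2 (0.077). Among the higher genes, Mark2 lost its call in 9 of the alternatives (highest adjusted p from limma 0.157). Over all left-out libraries 0 to 2 genes of the list were lower and 2 to 3 higher.

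At the lysosome, the components of the aldolase model split by complex. All 10 vacuolar ATPase genes of the list that were analysed, including its accessory gene Atp6ap1, were higher in siAldoa, by 0.21 to 0.53. The largest were Atp6v0d1 (0.53), Atp6v1e1 (0.47) and Atp6v1b2 (0.36). Atp6v0d1 was measured at 54.0, 46.8 and 47.9 CPM in siCtrl and at 68.5, 72.4 and 74.6 CPM in siAldoa. Of the 5 Ragulator genes (Lamtor1 to Lamtor5) 0 passed in limma, with log2 fold changes from -0.07 to 0.09 and a lowest adjusted p of 0.633. The scaffold Axin1, thought to carry LKB1 to the lysosome, was measured at 83.5, 82.3 and 80.4 CPM and at 79.9, 82.1 and 81.4 CPM (-0.02, limma adjusted p = 0.894). The channel genes Trpv1, Trpv2, Trpv3 and Trpv4 were below 2 CPM in every library. In the whole list 10 of 20 genes were higher, against 6, 7 and 2 without replicate 1, 2 or 3 of both groups and 5 without the mean-variance trend.

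Many lysosomal genes are known targets of TFEB and TFE3, which bind the E-box CACGTG (the same on both strands). It was present in the start regions of 5 of 15 lysosomal genes that matched a window (33.3%) and in 0 of the 10 AMPK and upstream kinase genes. Of all genes with a window, a background not matched for level, 8.09% held it. The motif was also present in 4 of 16 genes of the mTORC1 list, 5 of 23 substrates (21.7%) and 3 of 15 adenylate enzymes. In the remaining lists it was held by 1 of 15 regulators (Fnip1), 1 of 9 LKB1-dependent kinases and 0 of 12 transcription factors and output genes. Stretches around the motif (in capitals) are shown for called genes, for Fnip1 from chr11:54438092-54438121 on the plus strand, for Atp6v0d1 from chr8:105566050-105566079 on the minus strand and for Atp6v1a from chr16:44139373-44139402 on the minus strand (RefSeq, GRCm38.p6).
Fnip1: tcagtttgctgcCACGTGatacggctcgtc
Atp6v0d1: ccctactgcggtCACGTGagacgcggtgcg
Atp6v1a: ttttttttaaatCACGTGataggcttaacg
Tfe3 itself was not called (0.14, limma adjusted p = 0.120), nor was Tfeb (0.37, 0.366), which had 6.85 CPM or less in every library. These are transcript levels only, and a part of TFEB or TFE3 in the lysosomal list was not tested. Absence of these letters from a window says nothing about binding elsewhere in the gene.

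Among the substrates of AMPK, 4 of 24 genes were lower and 7 higher (median 0.08). Among the lower genes, Srebf2, which encodes a transcription factor of lipid synthesis, fell from 351, 324 and 327 CPM to 259, 252 and 276 CPM (-0.35, limma adjusted p = 4.3e-06). Acaca, which encodes acetyl-CoA carboxylase, fell by 0.16 on the log2 scale (limma adjusted p = 0.039) and lost its call in 12 of the alternatives. The highest were Pfkfb3 (0.69), whose product makes the activator of phosphofructokinase, Foxo3 (0.47) and Hdac5 (0.36). Pfkfb3 lost its call in 4 of the alternatives and Hdac5 in 1, while Foxo3 kept its call in all of them. The autophagy kinase gene Ulk1 (0.12) and Rptor (0.08), encoding a part of mTORC1, did not pass. In the mTORC1 list, 3 of 18 were lower (Eif4ebp1 -0.34, Rraga -0.32 and Rheb -0.18) and 4 higher, among them Rragc (0.38), Tsc1 (0.32) and Mtor (0.27), with a median of -0.05. Of these, Tsc1 lost its call in 10, Rheb in 11 and Mtor in 12 of the alternatives. The count of higher mTORC1 genes was 1 with DESeq2, 1 without the mean-variance trend and 1 to 4 with libraries left out. The substrate counts were 2 to 3 lower and 1 to 6 higher with libraries left out, the lowest being without replicate 3 of both groups (2 and 1).

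Adenylates are the ligands of the γ subunits. Of 12 enzymes of adenylate metabolism 2 were lower, among them the adenylate kinase gene Ak5 (-0.29), and 2 higher, the AMP deaminase genes Ampd2 (0.25) and Ampd3 (0.80, with groups that overlapped). The median of the list was -0.01. Ak5 lost its call in 12 of the alternatives, including every one with libraries left out, and Ampd2 in 6. With libraries left out 0 to 1 were lower and 0 to 2 higher, and without replicate 3 of both groups limma called 0 in either direction. Of 13 transcription factors and output genes linked to AMPK, 1 was lower, Tfam (-0.28), the packaging factor of mitochondrial DNA, and 4 were higher. Besides Foxo3 these were the glucose transporter gene Slc2a1 (0.63), Esrra (0.60) and the hexokinase gene Hk2 (0.47). Slc2a1 was measured at 70.4, 66.2 and 77.5 CPM in siCtrl and at 115, 109 and 109 CPM in siAldoa. Ppargc1a was measured at no more than 2.41 CPM in any library. With libraries left out 3 to 5 genes were higher and 0 to 1 lower. Hk2 lost its call without replicate 1 of both groups (adjusted p from limma 0.053). Tfam lost its call without siCtrl replicate 1, without siAldoa replicate 3 and without replicate 1, 2 or 3 of both groups. It also lost its call without the mean-variance trend.

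**Figure D5:**
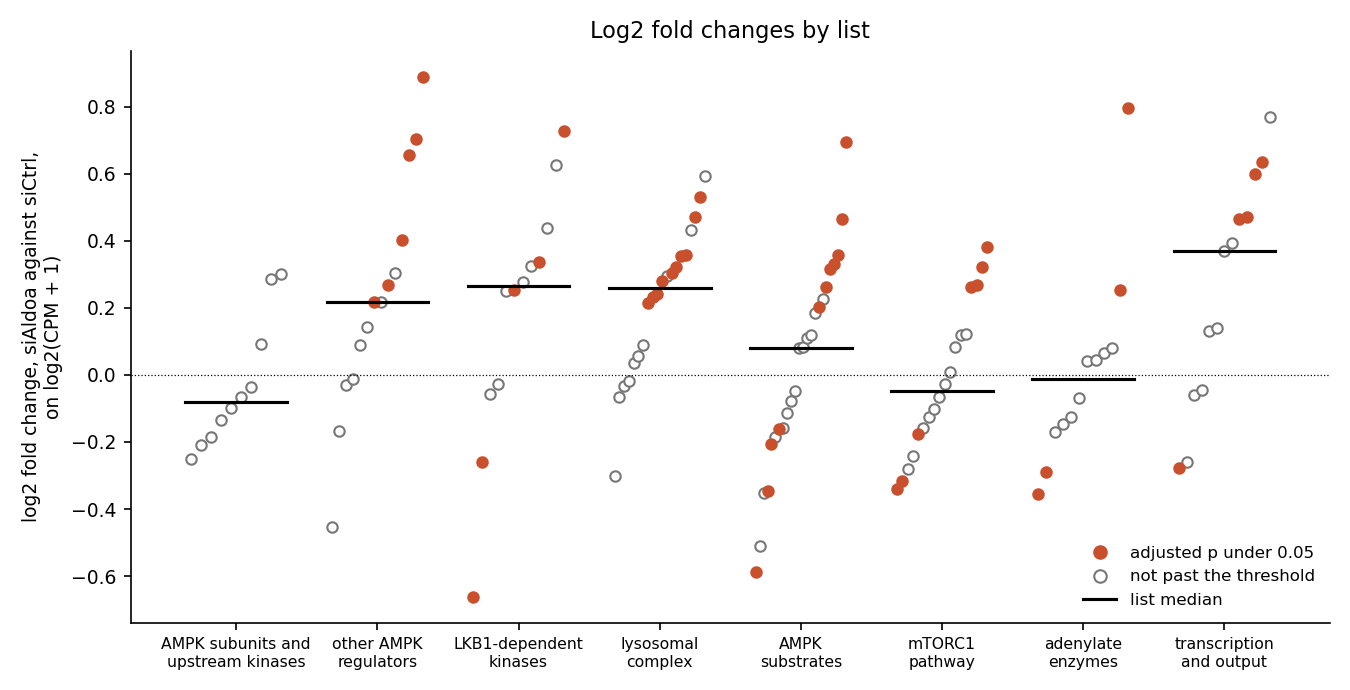
Log2 fold change (y axis, siAldoa against siCtrl on log2(CPM + 1)) of each gene in the 10 AMPK and upstream kinase genes and in 7 neighbouring lists (x axis), with filled points for an adjusted p under 0.05 and a line at the list median. None of the points is filled in the first column, and all filled points among the regulators and in the lysosomal complex lie above zero.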

How the data were processed

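RNA-sequencing of NIH/3T3 cells was analysed with 3 libraries per group (siCtrl, siAldoa). Per the labels and methods, poly(A) RNA was extracted with a column kit and converted into directional libraries, and reads were aligned by the authors to mm10 with Bowtie2 (version 2.2.7), subsampled to equal numbers and counted per gene. The annotation release, the use of strand and the treatment of multi-mapping reads are not given in the sources used here. The deposited values are CPM relative to an effective library size. They were whole multiples of 1 read for 100% of values (tolerance 0.001), so reads were recovered by division. Reads are without molecular identifiers, so their number covers counting error only. The authors' own comparison (log2 fold changes, log2 mean CPM, p-values and adjusted p-values) was not used.

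For the comparison, log2(CPM + 1) values were fitted in R (version 4.3.3) with limma (version 3.58.1), allowing a trend of variance with level. Tests were two-sided and p-values were adjusted by the Benjamini-Hochberg method across the 18001 genes. The pseudocount understates changes of low genes. Data were simulated with 200 of 18001 genes changed by a log2 fold change of 1 in siAldoa against siCtrl. The limma fit with the trend recovered 96.0% of the changed genes. Smaller changes, such as the estimates of the AMPK and upstream kinase genes (-0.25 to 0.30), were not simulated. The recovered share was not split by level. It therefore does not give the power to detect changes of that size, or changes in genes with few reads. Alternatives were DESeq2 (version 1.42.0) and edgeR's quasi-likelihood test (version 4.0.16) on the recovered reads, a pseudocount of 0.1, a filter at a mean of 1 CPM, TMM and quantile scaling, no trend, a replicate block and left-out libraries. The deposited values already used an effective library size, so TMM scaling left the calls unchanged (1809 lower and 1867 higher genes) and is no separate check. Lengths came from the GENCODE annotation of GRCm38, in which 17932 identifiers were found, and copies (90% identity over 200 bases) from blastn (version 2.17.0).

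Genes named were the 10 genes of interest, Aldoa, the 3 lowest and 3 highest called genes of each list with groups that do not overlap, and the 3 genes most like each of the 2 genes with the lowest adjusted p. Some genes that this rule covers are not reported here, and further list genes were named after their values were seen. The 10 genes and the lists were chosen with earlier results of these data known. Ppp2ca, Usp10, Atp6v0c, Lipe, Txnip, Rragb, Aprt, Nt5c1a, Ckb, Ckm, Ckmt1, Ckmt2 and Slc2a4 were not analysed here.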

Additional observations from a re-analysis of the deposited data

How the results depend on the processing

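The estimates of the 10 genes kept their sign under every alternative except Prkag1 (0.07 without siAldoa replicate 1, 0.10 without replicate 1 of both groups, and -0.24 to 0.10 over left-out libraries) and Cab39 (0.0039, 0.01 and 0.053 without siCtrl replicate 3, siAldoa replicate 3 and replicate 3 of both groups, and -0.086 to 0.053 over left-out libraries). Of the 10 genes, 1 was called lower (Camkk2) with the filter at 1 CPM and 1 with quantile normalization, and with libraries left out 0 to 1 were called lower and 0 to 1 higher. With a constant prior variance (no trend) limma called 616 genes lower and 824 higher, and 6 and 17 of the listed neighbouring genes. DESeq2 called 1117 lower and 1066 higher. With libraries left out, 520 to 1371 genes were lower and 494 to 1464 higher, and 5 to 9 and 13 to 31 of the neighbouring genes. The summed β level (difference 0.17 CPM per kilobase) was -0.26 with the longest transcript as length and -0.18 to 0.70 with libraries left out. The cause of these differences was not tested.

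Replicate numbers were not taken as pairs: libraries with the same number deviated from the means of their groups with correlations of 0.030, 0.014 and 0.13 over 10059 genes. A replicate block gave 1559 lower and 1611 higher genes and 0 calls among the 10, and 2 higher genes in place of 4 in the mTORC1 list, and not every library correlated best with its own number. Few reads limit Prkaa2, Prkag1 and Prkag3.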
